A study of Homo sapiens with 12 samples.

Results

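Expression of 10 genes of the circadian clock, out of 58735 genes counted, was followed over 4 treatments of U2OS cells: the repressors BHLHE40, BHLHE41, PER1, PER2, PER3, CRY1, CRY2, NR1D1 and NR1D2, and the output factor DBP. They were selected on the level of BHLHE41, which was lower with TH10785 than with DMSO, so that contrast is described below without a test. The other comparisons of BHLHE41 that share a library with it are also given without a test. U2OS is a cell line from a human osteosarcoma, and its RNA was sequenced after 24 h in 4 groups of 3 libraries: DMSO (the solvent control), 10 µM TH10785, 10 µM PNKP1i, and both compounds at 10 µM each. TH10785 is a small-molecule activator of the DNA glycosylase OGG1, written TH10587 in the series record. The sources used here call PNKP1i an inhibitor and give no structure for it. Nothing in the labels makes the replicates separate cultures, so a p-value here measures the spread between libraries, which may be technical. Each group was sampled at a single time, and the labels name no step that sets the phase of the clock.

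In the circadian clock, the activators CLOCK (or NPAS2) and ARNTL bind E-box sequences and switch on the PER and CRY genes, whose proteins then block the same activators. NR1D1 and NR1D2, the nuclear receptors REV-ERB alpha and beta, repress ARNTL and compete with the ROR receptors for shared sites, while BHLHE40 and BHLHE41 (DEC1 and DEC2) compete with the activators at E-boxes. DBP is an activator driven by E-boxes that binds D-box sequences, and NFIL3 represses through the same D-boxes. U2OS is a line in which this oscillator is often studied.

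All 10 genes had an annotated start in RefSeq (GRCh38.p14), and the 250 bases before each start were searched on both strands for the E-box CACGTG, the variant CACGTT, the D-box TTATGTAA, its palindrome TTACGTAA, the ROR site core TAGGTCA and the cyclic AMP element TGACGTCA. The sites are shown because they are the letters through which the genes named above are known to regulate each other. Each line gives 30 bases on the gene's own strand with the motif in capitals.
BHLHE40, E-box: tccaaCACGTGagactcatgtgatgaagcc
BHLHE41, E-box: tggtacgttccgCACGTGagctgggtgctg
PER1, E-box: agcacccaggtcCACGTGcgcccgtgtgtg
PER2, E-box variant: ggcgcgcgcggtCACGTTttccactatgtg
PER3, D-box: gagcccgcgcgTTATGTAAcgcgccccggg
CRY1, E-box variant: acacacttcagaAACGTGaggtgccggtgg
CRY2, E-box variant: acacatggtaggAACGTGagggggcgggcc
CRY2, ROR site core: ttgcggcgtcaTAGGTCActgggcgggcta
NR1D1, E-box variant: gcgcaagagctcAACGTGccggctgttgga
NR1D2, E-box: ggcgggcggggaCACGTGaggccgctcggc
NR1D2, second E-box: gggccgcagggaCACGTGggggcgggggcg
NR1D2, D-box: gtgacgcggcaTTACATAAtgggcgctgag

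The BHLHE40 site lies at chr3:4979187-4979216 (plus strand) in an exon of BHLHE40 as GENCODE 29 annotates it. The BHLHE41 site is at chr12:26125068-26125097 (minus strand), in an exon of BHLHE41 and an intron of SSPN. The PER1 site at chr17:8152560-8152589 (minus) and the PER2 site at chr2:238288790-238288819 (minus) are intronic in the longer transcripts of those genes. The PER3 site at chr1:7784103-7784132 (plus) and the NR1D1 site at chr17:40100740-40100769 (minus) lie outside annotated genes. The CRY1 site at chr12:107093621-107093650 (minus) and the CRY2 sites at chr11:45847275-45847304 and chr11:45847399-45847428 (plus) are in exons of their genes. The 3 NR1D2 sites, at chr3:23945954-23945983, chr3:23946004-23946033 and chr3:23945916-23945945 (plus), are in introns of NR1D2 and NKIRAS1. Over 35116 windows of the same length before all annotated starts, 6.34% held CACGTG, 4.55% the variant, 0.834% the D-box, 0.105% its palindrome, 1.61% the ROR core and 1.65% the cyclic AMP element. Counted by gene, over 27305 genes with any of their windows, the shares were 7.73%, 5.53%, 1.06%, 0.128%, 2.01% and 2.03% in the same order. PER3, CRY2 and NR1D2 each had another annotated start whose window held none of the letters searched. No window of the 10 genes held TTACGTAA or TGACGTCA, and none of the letters searched was found before the DBP start. A match is a description of letters, not a tested site.

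Expression levels are given in CPM, read counts scaled to a common library size with TMM factors. Exon length here is the union of all annotated exons of a gene, which can exceed the length of the transcript made. For DBP it was 6544 bp of a gene at 48630030 to 48637438, so its level per kb may be understated against the others. Per kilobase of exon, the DMSO levels ran in the order BHLHE40 (20.8 ± 1.5 CPM per kb, SD, n = 3), NR1D1 (20.7 ± 4.19), DBP (14.1 ± 1.46), BHLHE41 (11.5 ± 1.67), PER1 (9.6 ± 0.65), PER3 (7.98 ± 0.349), NR1D2 (6.78 ± 0.605), CRY2 (5.83 ± 0.804), CRY1 (4.8 ± 0.547) and PER2 (3.56 ± 0.413). The replicate ranges of neighbours in that order overlapped for BHLHE40 and NR1D1, DBP and BHLHE41, BHLHE41 and PER1, NR1D2 and CRY2, and CRY2 and CRY1. With both compounds PER2 was again the lowest (1.57 ± 0.16 CPM per kb), and DBP (3.01 ± 1.02) overlapped CRY2 (3.1 ± 0.325). All 10 genes passed the low-count filter and were among the 17290 genes tested.

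Most of these genes were lower with both compounds than with PNKP1i. Against PNKP1i, the combination lowered 7 of the 10 genes and raised 1, at an adjusted p under 0.05 (edgeR's quasi-likelihood F test, 2-sided, Benjamini-Hochberg over all tested genes). That comparison moved much of the transcriptome: 46.0% of all tested genes were called, 24.4% higher and 21.5% lower. The median log2 fold change was -0.87 for the 10 genes and 0.01 for all tested genes. BHLHE41, PER1, PER2, PER3, CRY2, NR1D1 and DBP fell, NR1D2 rose, and BHLHE40 and CRY1 did not pass the test. In a bulk library, a lower level in every cell and fewer cells with the transcript cannot be told apart.

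**Figure D1:**
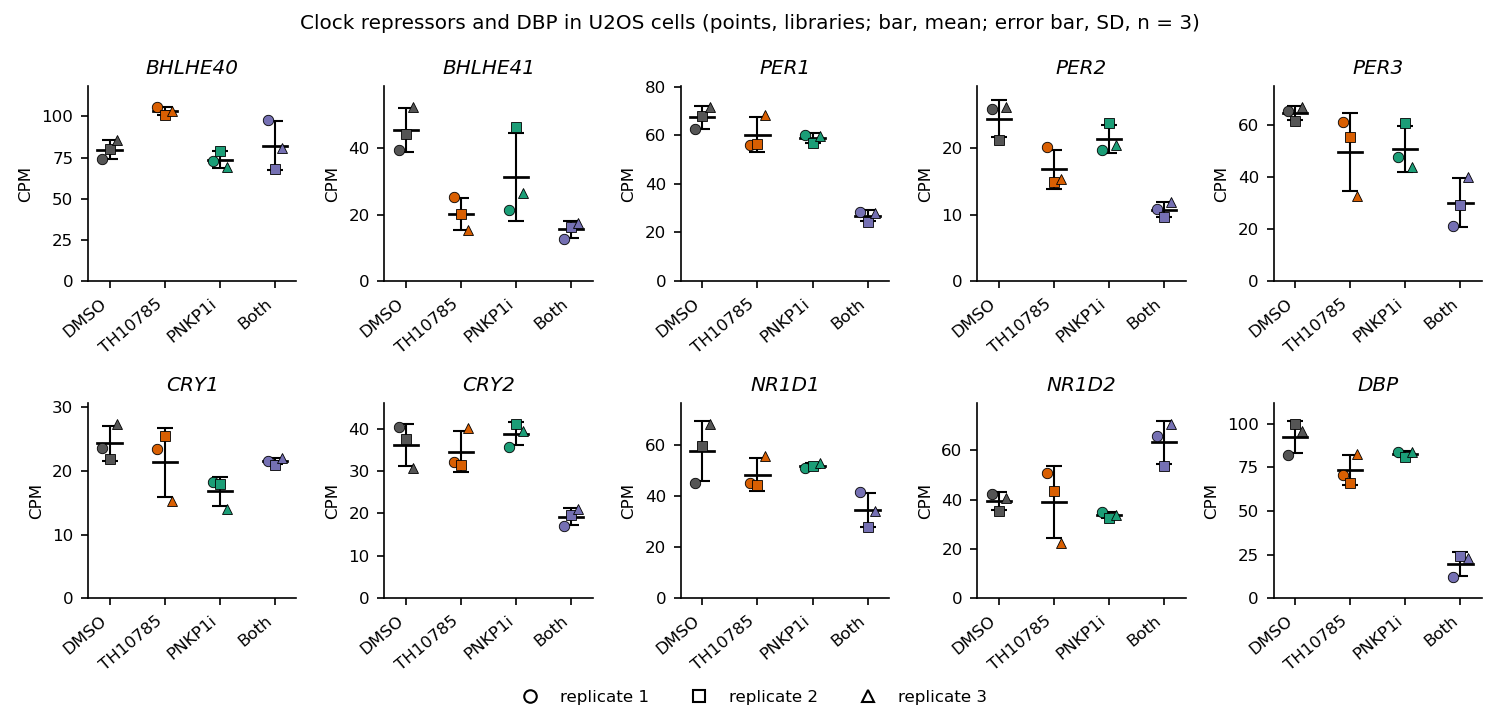
Level of each gene (CPM, vertical axis, from 0) in the 12 U2OS libraries by group (horizontal axis). Points are libraries, with a symbol for each replicate number, and bars are the mean with the SD (n = 3). DBP reaches at most 23.9 CPM with both compounds and at least 66.3 CPM in every other library. BHLHE41 is at most 25.2 CPM in each library given TH10785, and the lowest PNKP1i library (21.3 CPM) also lies under that value.

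BHLHE41 (ENSG00000123095, chromosome 12, 26120026 to 26125127, minus strand, GRCh38) encodes DEC2, a repressor of E-box promoters. It was at 39.5, 44.4 and 52.5 CPM with DMSO and at 25.2, 20.1 and 15.5 CPM with TH10785. It was at 21.3, 46.3 and 26.7 CPM with PNKP1i and at 12.6, 16.4 and 17.6 CPM with both compounds. The TH10785 libraries all lay under the DMSO libraries, and the combination libraries all lay under the PNKP1i libraries. PNKP1i replicate 2 lay within the DMSO range, and PNKP1i replicate 1 lay within the TH10785 range. The difference that selected it was -1.17 on the log2 scale, or 2.24-fold lower with TH10785. In the combination against PNKP1i, libraries that the selection did not use, BHLHE41 fell 2.02-fold (log2 -1.02, standard error (SE) 0.24, adjusted p = 0.00298 in edgeR). Without PNKP1i replicate 2 that value was -0.63 (adjusted p = 0.0253). Given as descriptions, the difference was -0.53 for PNKP1i against DMSO (-0.92 without PNKP1i replicate 2), -1.55 for both compounds against DMSO, and -0.38 for both against TH10785, where the groups overlapped.

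BHLHE40 (ENSG00000134107, chromosome 3, 4979116 to 4985323, plus strand), which encodes the closely related DEC1, did not follow BHLHE41. Its libraries were at 73.9, 80.2 and 85.4 CPM with DMSO and at 106, 101 and 103 CPM with TH10785. They were at 73.1, 79.2 and 69.0 CPM with PNKP1i and at 97.9, 67.8 and 81.1 CPM with both compounds. The TH10785 libraries were the highest of the 12 and did not overlap DMSO (log2 difference 0.37, described without a test), while the combination spread across the PNKP1i range. Against PNKP1i the combination gave 0.16 (SE 0.13, adjusted p = 0.324 in edgeR, 95% interval -0.11 to 0.42). Against TH10785 it gave -0.33 (SE 0.13, adjusted p = 0.0458), a call that held in 8 of 21 alternative settings and was lost without any of 9 libraries (DMSO replicate 2, combination replicates 2 and 3, and each PNKP1i and TH10785 replicate).

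PER1 (ENSG00000179094, chromosome 17, 8140472 to 8156506, minus strand), a partner of the CRY proteins in repression and an immediate target of hormone and cyclic AMP signals, was lowest with the combination. It was at 62.4, 67.9 and 71.7 CPM with DMSO, 55.9, 56.5 and 68.5 with TH10785, and 60.1, 56.6 and 59.9 with PNKP1i. With both compounds it was at 28.3, 24.2 and 28.0 CPM, below every other library. The fall against PNKP1i was 2.20-fold (log2 -1.13, SE 0.12, adjusted p = 2.06e-05 in edgeR), while TH10785 alone differed from DMSO by -0.16.

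PER2 (ENSG00000132326, chromosome 2, 238244038 to 238290102, minus strand), the PER protein whose stability helps to set clock period, had the lowest level per kilobase. Its libraries were at 26.0, 21.2 and 26.2 CPM with DMSO, 20.2, 15 and 15.3 with TH10785, and 19.8, 23.8 and 20.5 with PNKP1i. With both compounds they were at 10.8, 9.64 and 11.8 CPM. The levels stepped down from DMSO to TH10785 to the combination with no overlap between those groups. PER2 fell by 0.99 against PNKP1i (SE 0.16, adjusted p = 0.000279 in edgeR) and by 0.64 against TH10785 (SE 0.16, adjusted p = 0.00537), and TH10785 differed from DMSO by -0.54.

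PER3 (ENSG00000049246, chromosome 1, 7784320 to 7845177, plus strand), the PER gene held to be least needed for rhythm, had a wide spread among replicates. It was at 65.3, 61.5 and 67.0 CPM with DMSO, 61.2, 55.3 and 32.6 with TH10785, and 47.5, 60.6 and 44.0 with PNKP1i. With both compounds it was at 21.3, 29.4 and 39.9 CPM, below all PNKP1i libraries but overlapping TH10785 through its replicate 3. It fell by 0.75 against PNKP1i (SE 0.22, adjusted p = 0.0108 in edgeR). That call was lost without combination replicate 1 (-0.54, adjusted p = 0.0638) and without PNKP1i replicate 2 (-0.60, adjusted p = 0.0554).

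CRY2 (ENSG00000121671, chromosome 11, 45847118 to 45883248, plus strand) and CRY1 (ENSG00000008405, chromosome 12, 106991364 to 107093829, minus strand) encode the cryptochromes that inhibit CLOCK and ARNTL. CRY2 was at 40.3, 37.6 and 30.6 CPM with DMSO, 32.1, 31.4 and 40.1 in the TH10785 libraries, 35.8, 41.1 and 39.4 in the PNKP1i libraries and 17, 19.6 and 21.0 in the combination. The other groups overlapped each other and the combination lay apart below them. CRY2 fell 2.02-fold against PNKP1i (log2 -1.01, SE 0.14, adjusted p = 0.000124 in edgeR). CRY1 was at 23.6, 21.9 and 27.4 CPM with DMSO, 23.4, 25.5 and 15.2 in the TH10785 libraries, 18.3, 17.9 and 14.1 in the PNKP1i libraries and 21.5, 21.0 and 21.9 in the combination. For CRY1 the combination lay above PNKP1i and overlapped DMSO and TH10785. Its difference from PNKP1i was 0.36 (SE 0.18, adjusted p = 0.109), and 0.36 (adjusted p = 0.025) without TH10785 replicate 3. With offsets for GC content, explained further on, it was -0.43 (adjusted p = 0.0145).

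NR1D1 (ENSG00000126368, chromosome 17, 40092787 to 40100725, minus strand) and NR1D2 (ENSG00000174738, chromosome 3, 23945260 to 23980618, plus strand), which encode the REV-ERB receptors, moved in opposite directions with the combination. NR1D1 was at 44.9, 59.3 and 68.0 CPM with DMSO, 45.0, 44.0 and 55.5 in the TH10785 libraries, 51.0, 51.6 and 52.8 in the PNKP1i libraries and 41.3, 27.8 and 34.2 in the combination. The combination libraries were the lowest of the 12. NR1D1 fell by 0.59 against PNKP1i (SE 0.16, adjusted p = 0.00714 in edgeR). NR1D2 was at 42.2, 35.5 and 40.6 CPM with DMSO, 50.9, 43.6 and 22.6 in the TH10785 libraries, 35.1, 32.7 and 33.7 in the PNKP1i libraries and 65.7, 53.6 and 70.7 in the combination. The combination libraries were the highest of the 12, and TH10785 replicate 3 was the lowest. NR1D2 rose by 0.91 against PNKP1i (SE 0.21, adjusted p = 0.00221). Neither of these REV-ERB calls against PNKP1i held with the GC content offsets. With them NR1D1 was still called lower against DMSO (-0.43, adjusted p = 0.0269) but not against TH10785 (-0.14, adjusted p = 0.475). The NR1D1 fall against DMSO was called in 21 of 21 alternative settings.

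DBP (ENSG00000105516, chromosome 19, 48630030 to 48637438, minus strand), a transcription factor read as an output of E-box activity, moved further than any other of the 10. It was at 82.0, 99.9 and 95.6 CPM with DMSO, 70.7, 66.3 and 82.9 with TH10785, and 84.1, 80.8 and 83.8 with PNKP1i. With both compounds it was at 12, 23.9 and 23.1 CPM. The 9 libraries without the combination ran from 66.3 to 99.9 CPM, far above the 3 with it. TH10785 alone differed from DMSO by -0.34 on the log2 scale, described without a test, and those groups overlapped. DBP fell 4.21-fold against PNKP1i (log2 -2.07, SE 0.19, adjusted p = 1.09e-05 in edgeR) and 4.70-fold against DMSO (log2 -2.23, SE 0.19, adjusted p = 1.39e-06).

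The comparisons of the combination with DMSO and with TH10785 use its same 3 libraries and so are not independent of that with PNKP1i. Against DMSO, 6 of the 9 genes tested fell and 1, NR1D2, rose, where 41.0% of all tested genes were called, 21.3% higher and 19.7% lower. PER1 fell by 1.33 and PER2 by 1.18 on the log2 scale, while NR1D2 rose by 0.68 (SE 0.21, adjusted p = 0.014 in edgeR). The NR1D2 call was lost without DMSO replicate 2 (0.61, adjusted p = 0.0632), without replicate 3 of the combination (0.60, adjusted p = 0.0561) and with the offsets for GC content (0.11, adjusted p = 0.462). With those offsets 7 of the 9 fell and 0 rose, where 17.5% and 16.6% of all tested genes did, and CRY1 went from -0.18 (adjusted p = 0.44) to -0.81 (adjusted p = 9.32e-05). Against TH10785, 7 of the 9 fell and 1 rose, where 42.3% were called, 22.7% higher and 19.7% lower. With the offsets for GC content 6 of the 9 fell and 0 rose, where 18.3% and 15.1% of all tested genes did. CRY1 was then called lower (-0.69, adjusted p = 0.000527), and BHLHE40 (-0.20, adjusted p = 0.19), NR1D1 (-0.14, adjusted p = 0.475) and NR1D2 (0.05, adjusted p = 0.758) were not called. The 4 calls lost when TH10785 and the combination were fitted alone were BHLHE40, PER3, NR1D1 and NR1D2. PER3 also lost its call without TH10785 replicate 1 or 2 or combination replicate 1, NR1D1 without TH10785 replicate 3 or combination replicate 2 or 3, and NR1D2 without combination replicate 3 (adjusted p from 0.0514 to 0.0956).

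With PNKP1i alone, 0 of the 9 genes tested were called against DMSO in edgeR, near the 0.197% of all tested genes called there. At an unadjusted p under 0.05 there was 1, CRY1, in edgeR and also 1 in DESeq2, where 11.3% and 11.2% of all tested genes were. CRY1 was -0.54 from DMSO (SE 0.18, 95% interval -0.91 to -0.16, adjusted p = 0.32), and its PNKP1i libraries all lay below its DMSO libraries. It was called lower in 2 of 21 alternative settings. These were the fit of those groups alone (-0.52, adjusted p = 0.0122) and the fit without TH10785 replicate 3 (-0.52, adjusted p = 0.0439). Over all genes these fits called 1150 of 16273 and 301 of 17804. With the offsets for GC content, CRY1 was at -0.38 (adjusted p = 0.211) and was not called. For PER1 the interval of the difference ran from -0.44 to 0.05, and for DBP from -0.54 to 0.22.

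The effect of TH10785 differed with and without PNKP1i for 4 of the 9 genes tested for it. The interaction, which is the log2 difference made by TH10785 in the presence of PNKP1i minus that in its absence, was called lower for PER1, CRY2 and DBP and higher for NR1D2. Over all tested genes 30.6% had a called interaction, 16.5% higher and 14.1% lower. It was -1.74 for DBP (SE 0.26, adjusted p = 0.00245 in edgeR), -0.97 for PER1 (SE 0.17, adjusted p = 0.00424) and -0.94 for CRY2 (SE 0.20, adjusted p = 0.00639). For NR1D2 it was 0.92 (SE 0.29, adjusted p = 0.0255), called in 12 of 20 alternative settings. It was lost (adjusted p from 0.0501 to 0.0692) without DMSO replicate 1 or 3, combination replicate 1 or 3, or any PNKP1i replicate. With the offsets for GC content it was 0.07 (adjusted p = 0.776), while PER1, CRY2 and DBP were again called, where 18.9% of all tested genes were. PER2 (-0.45, adjusted p = 0.144), PER3 (-0.37, adjusted p = 0.381), NR1D1 (-0.34, adjusted p = 0.271), CRY1 (0.55, adjusted p = 0.107) and BHLHE40 (-0.21, adjusted p = 0.382) did not pass. For BHLHE41 the value was 0.15, and 0.54 without PNKP1i replicate 2, described without a test because the contrast that selected it enters the difference. The interactions of the other 9 genes use the libraries of that contrast too.

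**Figure D2:**
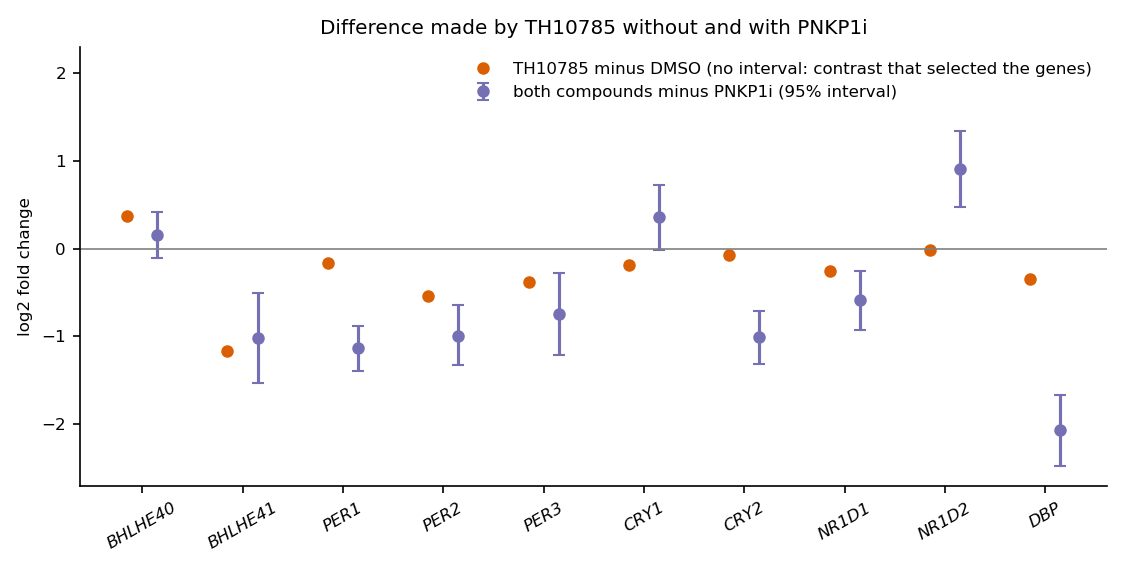
Log2 fold change (vertical axis) made by TH10785 in the absence of PNKP1i (orange) and in its presence (purple, 95% interval) for each gene. The orange points have no interval because the fall of BHLHE41 in that contrast selected the set. BHLHE41 is at -1.17 and -1.02 (-0.63 without PNKP1i replicate 2), while DBP goes from -0.34 to -2.07.

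The libraries of the combination also differed from the rest in how counts follow GC content, the share of G and C bases in the longest transcript. In the combination against PNKP1i, the median change of all tested genes went from 0.84 at 35 to 40% GC to -0.42 at 60 to 65% GC. The gradient holds shifts of both groups. Genes under 40% GC lay, at the median, 0.65, 0.46 and 0.80 from the DMSO mean in the combination libraries. In the PNKP1i libraries they lay at -0.27, -0.07 and -0.21. The 10 genes span that range: CRY1 (37.2%) and NR1D2 (38.5%) are low, PER1 (62.7%), NR1D1 (59.5%), DBP (57.8%) and CRY2 (57.0%) are high, and PER3 (46.2%), BHLHE41 (49.6%), BHLHE40 (52.0%) and PER2 (52.4%) are between. With offsets for GC content and length in each library, 7 of the 10 genes again fell and 1 rose, where 33.3% of all tested genes were called, 15.8% higher and 17.5% lower. BHLHE40 (0.33, adjusted p = 0.0368) was then the gene that rose and CRY1 (-0.43, adjusted p = 0.0145) joined those that fell. NR1D1 (-0.19, adjusted p = 0.331) and NR1D2 (0.14, adjusted p = 0.365) no longer passed. Lower values remained for BHLHE41 (-0.93, adjusted p = 0.0126), PER1 (-0.72, adjusted p = 2.85e-05), PER2 (-0.84), PER3 (-0.89), CRY2 (-0.70) and DBP (-1.76, adjusted p = 7.15e-06). The part of the GC trend in the TMM values was not tested.

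**Figure D3:**
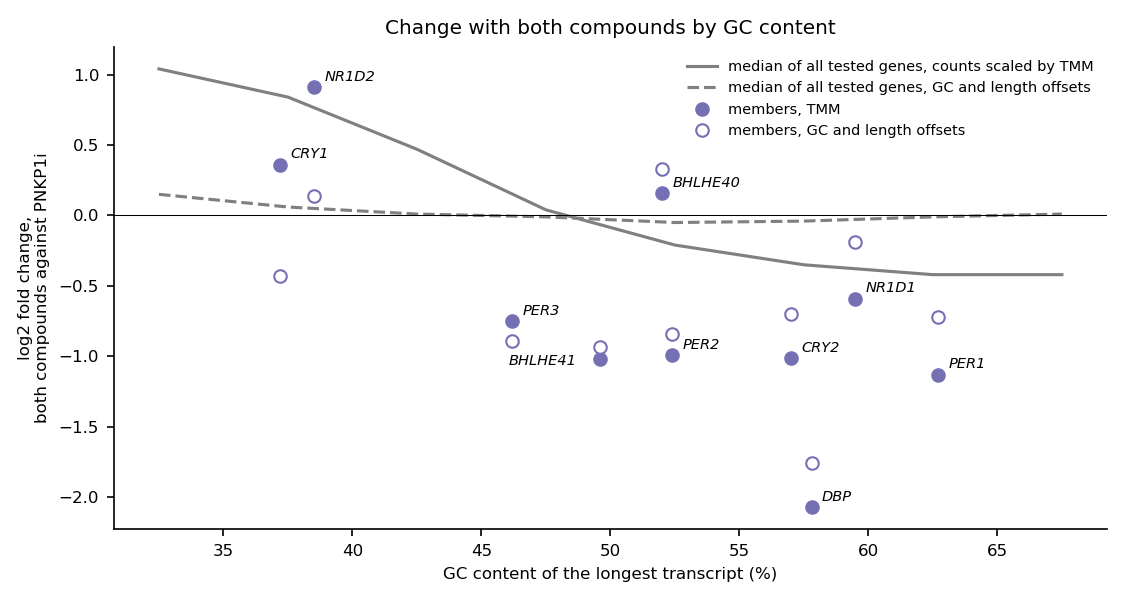
Log2 fold change of both compounds against PNKP1i (vertical axis) by GC content of the longest transcript (horizontal axis, percent), with the median of all tested genes as lines. Filled points are TMM values and open points have GC and length offsets. NR1D2 and CRY1, at the low end, move from 0.91 to 0.14 and from 0.36 to -0.43, while DBP stays lowest under either.

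Some exons of these genes overlap a gene on the other strand, and nothing in the sources states a strand setting for the counting. THRA covers 263 bp (9.5%) of the NR1D1 exons, and it too fell, from 116 ± 5.6 CPM with PNKP1i to 48.1 ± 19.3 with both compounds (log2 -1.27, SE 0.22, adjusted p = 0.000339 in edgeR). SPHK2 covers 661 bp (10.1%) of the DBP exons and fell from 28.8 ± 0.92 to 19.5 ± 0.548 CPM (-0.57, adjusted p = 0.00278). UTS2, which covers 10.7% of the PER3 exons, was at 0 in all groups but TH10785 (0.0172 ± 0.0299 CPM), and SSPN, which covers 4.1% of the BHLHE41 exons, was between 1.24 and 3.07 CPM. The antisense gene Z98884.1 also covers 482 bp (6.0%) of the PER3 exons, and AC012485.1 covers 188 bp (2.7%) of the PER2 exons. The levels of Z98884.1 and AC012485.1 are not given here. Reads from the shared bases cannot be told apart.

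The activators opposite these repressors rose with the combination, fewer of them once offsets for GC content were used. Against PNKP1i, 4 of 4 genes of the positive limb rose, where 24.4% of all tested genes did, with a median of 0.99 against 0.01 for all tested genes. CLOCK averaged 15.1 ± 0.729 CPM with PNKP1i and 34.9 ± 9.78 CPM with both (log2 1.21, SE 0.25, adjusted p = 0.00133 in edgeR), NPAS2, its paralogue, from 13 ± 1.24 to 28.4 ± 11.7 CPM (1.13, SE 0.21), ARNTL by 0.80 and ARNTL2 by 0.85. With the GC offsets 3 of 4 rose, where 15.8% of all tested genes did. NPAS2 stayed at 1.14, CLOCK was at 0.33 (adjusted p = 0.0439) and ARNTL at 0.38 (adjusted p = 0.0304), while ARNTL2 was at 0.21 (adjusted p = 0.169). With those offsets 3 of 4 rose against DMSO and 1 of 4 against TH10785, where 16.6% and 15.1% of all tested genes did. CLOCK against DMSO was at 0.17 (adjusted p = 0.302). The offsets left 0 of 4 interactions called, where 18.9% of all tested genes were, against 4 of 4 without them. Among the ROR receptors, which activate ARNTL at the sites the REV-ERBs occupy, 1 of 3 rose (24.4% of all tested genes did), RORA (0.82, adjusted p = 0.0223), at -0.08 with the offsets.

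The other D-box factors moved in opposite directions. TEF, an activator of the family of DBP, fell from 128 ± 3.97 CPM with PNKP1i to 46 ± 7.08 with both compounds (log2 -1.48, SE 0.14, adjusted p = 1.48e-05 in edgeR), and its TH10785 and DMSO libraries were at 107.4 CPM or more. NFIL3, the D-box repressor, rose by 1.16 (SE 0.22, adjusted p = 0.000624). With the GC offsets the values were -1.18 and 1.07. HLF, the remaining activator, was too low to be tested, at 0.327 ± 0.131 CPM with DMSO.

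Enzymes that modify or degrade PER and CRY showed no single direction: 4 of 11 tested rose and 2 fell, near the shares of all tested genes (24.4% and 21.5%), with a median of 0.24. CSNK1A1, a casein kinase, rose by 0.69 (SE 0.14, adjusted p = 0.00119) and USP7, a deubiquitinase, by 0.60, while the kinases CSNK1D (-0.49, SE 0.12, adjusted p = 0.00287) and GSK3A (-0.44) fell. With the GC offsets 3 rose and 1 fell, where 15.8% and 17.5% of all tested genes did, and CSNK1A1 was at -0.03 and CSNK1D at -0.19. Those called with the offsets, named after their values were seen, were USP7 (0.42), FBXW7 (0.53), CSNK1E (0.35) and GSK3B (-0.61).

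Among other outputs and partners of the clock, 1 of 7 tested rose and 2 fell, near the 24.4% and 21.5% of all tested genes, with a median of 0.03. With the GC offsets 1 rose and 3 fell, where 15.8% and 17.5% of all tested genes did, with a median of -0.18. NAMPT, the rate-limiting enzyme of NAD salvage, averaged 34.4 ± 2.39 CPM with PNKP1i and 97 ± 25.4 CPM with both (log2 1.49, SE 0.21, adjusted p = 0.000102 in edgeR, and 0.65 with the GC offsets). USP2, a deubiquitinase, fell by 1.22 and TIMELESS, a partner of the replication fork, by 0.56. WEE1, named after its values were seen, was at 0.03 and fell with the offsets (-0.75, adjusted p = 0.000147). CIART, a repressor of CLOCK and ARNTL, was at 0.0635 ± 0.0744 CPM with both compounds and was not tested.

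The relatives of BHLHE40 and BHLHE41 that share the Orange domain, a protein motif next to the basic helix-loop-helix, were mixed. Of 8 listed, 4 were tested, and 2 fell and 2 rose (21.5% and 24.4% of all tested genes): HES6 (-0.78, SE 0.17, adjusted p = 0.00185 in edgeR) and HES1 (-0.44, adjusted p = 0.00779), a target of Notch, fell, and HEY1 (0.66, adjusted p = 0.0225) and HES7 (0.69, adjusted p = 0.0436) rose. HES6 was at -0.37 (adjusted p = 0.0545) with the GC offsets. With PNKP1i alone against DMSO, none of the 31 genes tested in these lists was called by edgeR or DESeq2, where 34 and 111 of 17290 were. In each, 3 had an unadjusted p under 0.05, near the 11.3% and 11.2% of all tested genes that did.

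**Figure D4:**
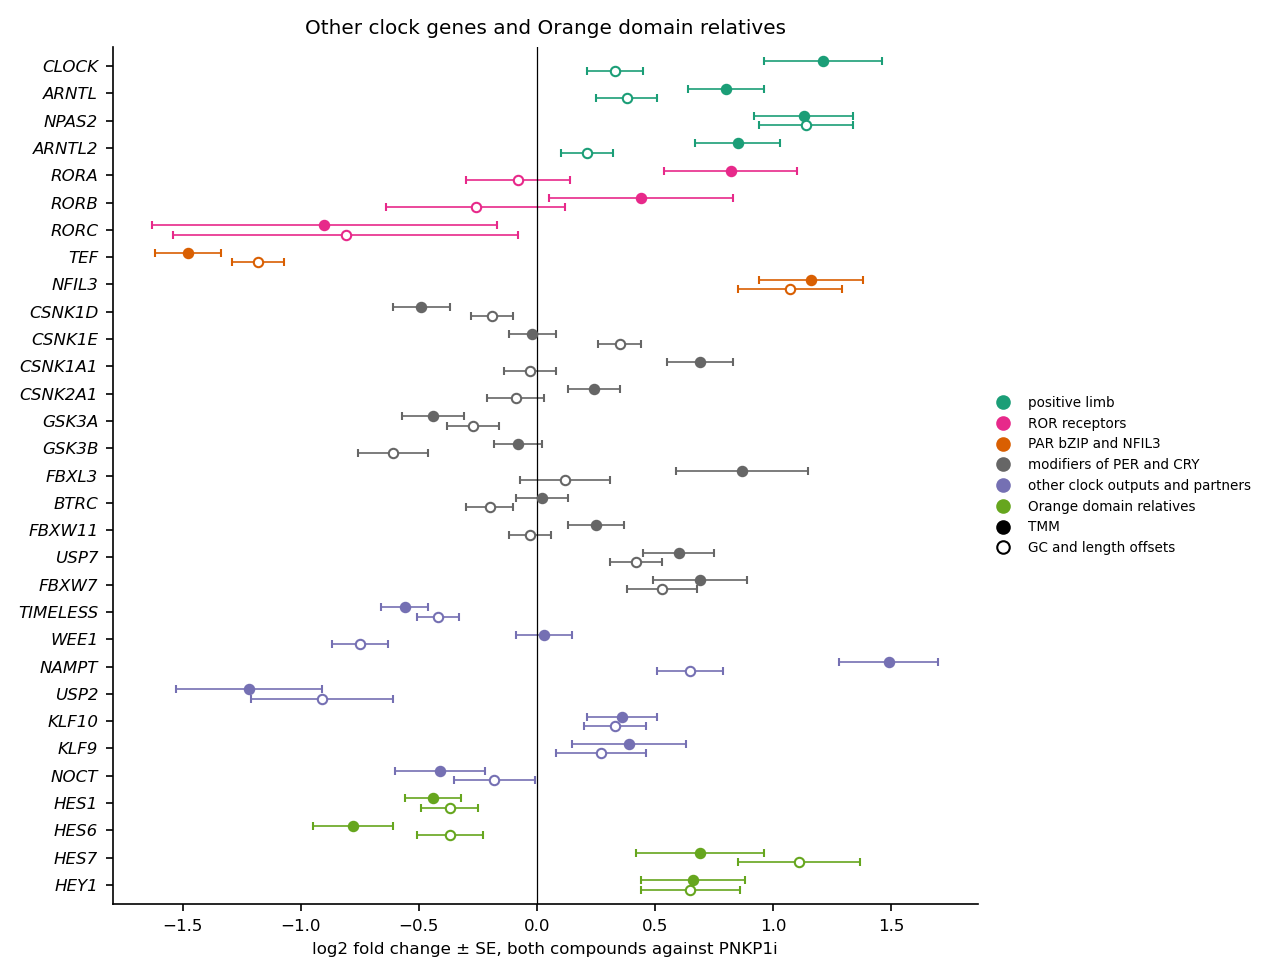
Log2 fold change of both compounds against PNKP1i (horizontal axis, with the SE) for the other clock genes and the Orange domain relatives (vertical axis, coloured by list). Filled points are TMM values and open points have GC and length offsets. TEF (-1.48 and -1.18) and NFIL3 (1.16 and 1.07) keep their places, while RORA goes from 0.82 to -0.08.

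The genes whose profile over the 12 libraries was most like that of BHLHE41 were ENC1, ADGRL3, RNF150, MEIS1 and EPHA4. Likeness was the root mean square difference of log2 CPM after each gene was centred on its own mean, over 12448 genes whose mean log2 CPM reached 1. It was 0.231 for ENC1, an actin-binding BTB protein, and 0.248 for ADGRL3, an adhesion receptor, against a median of 0.711 over the genes ranked. EPHA4, an ephrin receptor, was at 8.67 CPM with DMSO, 3.81 with TH10785, 5.56 with PNKP1i and 2.61 with both (means of 3). ENC1 was at 229, 150, 184 and 96.7 CPM in the same order. Such a ranking picks the genes by their values in these libraries and is a description.

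Depth ran from 16225339 to 21546369 counts per library. TH10785 replicate 3 stood apart on the first 2 principal components (-54.5 and -45.9, with its partners at -2.5 and 6.6 and at -10.1 and -0.8), and its 2369 genes under 40% GC lay -0.63 from the DMSO mean where its partners lay at 0.21 and 0.10. Without it, TH10785 against DMSO was -0.99 for BHLHE41, -0.14 for PER3, 0.02 for CRY1 and 0.27 for NR1D2. The combination against TH10785 was then 0.42 for NR1D2 (adjusted p = 0.0159), -0.94 for PER3 and -0.37 for NR1D1 (adjusted p = 0.0784 in edgeR), and the interaction of NR1D2 was 0.63 (adjusted p = 0.0127). Markers of bone-forming mesenchymal cells were present (COL1A1 at 573 to 1799 CPM, SPARC at 760.3 to 1934, VIM at 683.7 to 1125, RUNX2 at 14.9 to 30.9), except COL1A2, at most 0.538 CPM. The blood marker CD3E was at 0 in every library, which allows up to 0.184 CPM in the library of lowest depth at 3 counts, and PTPRC and CD68 were at most 0.366 and 0.259 CPM. Epithelial EPCAM (1.22 to 4.03 CPM) and CDH1 (1.56 to 2.71) and endothelial VWF (0.484 to 4.83), PECAM1 (0.428 to 1.66) and CDH5 (0.388 to 1.39) were low, and KRT20 was at most 0.122 CPM.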

How the data were processed

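RNA sequencing was analysed from raw read counts for 58735 genes that the authors deposited. Per the labels' protocols, TRIzol RNA was made into NEBNext Ultra libraries and read as 150 bp pairs. Per the submitters' processing notes, the tools were HISAT2 2.0.5, HTSeq 0.6.1 and DESeq2 1.30.1 with GRCh38 and hg38. Which of them made the counts, the annotation and the use of strand are not given in the sources used here. The authors' normalized table was not used.

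Tests used edgeR 4.0.16 (R 4.3.3) on these counts. Low genes were dropped by filterByExpr (minimum count 10, total 15), and the rest were scaled by TMM and fitted by robust quasi-likelihood with 1 mean per group over the 12 libraries. The test was 2-sided, and calls were made at an adjusted p under 0.05 over 17290 genes. The biological coefficient of variation was 15.4%. No 2 libraries were alike within sampling noise (chi-square per gene between replicates 3.02 to 36.5). Scripts were tested on simulated data.

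The 10 members and the lists were chosen with earlier results of these data known. The rule for named genes takes the members, up to 4 called genes per clock list by smallest p, and the 5 genes most like BHLHE41. Of 38 listed other genes, 37 were in the table and 31 were tested. Positions, overlaps, GC content and length come from GENCODE 29 (GRCh38), the windows before gene starts from RefSeq (GRCh38.p14). The results were recomputed with DESeq2 1.42.0, with voom of limma 3.58.1, with RLE or upper-quartile factors, with no or a stricter count filter (CPM of 1 in 3 libraries), with only the groups compared, with the replicate number as a block, with GC and length offsets (splines with 5 degrees of freedom), and without each library in turn.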

Additional observations from a re-analysis of the deposited data

Results flagged for a closer look

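The effect of TH10785 with PNKP1i present differed from its effect without PNKP1i, by the interaction term of edgeR's quasi-likelihood test, for 4 of the 9 genes tested, where 30.6% of all tested genes were called. On the log2 scale that difference was -0.97 for PER1 (adjusted p = 0.00424), -0.94 for CRY2 (adjusted p = 0.00639), 0.92 for NR1D2 (adjusted p = 0.0255) and -1.74 for DBP (adjusted p = 0.00245). With the GC content and length offsets it was -0.65 for PER1, -0.67 for CRY2 and -1.51 for DBP, all called where 18.9% of all tested genes were, and 0.07 for NR1D2 (adjusted p = 0.776), which was not.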

How the results depend on the processing

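Over the tests of single genes, 909 values kept their direction and side of the threshold, 40 lost a call, 6 gained one and 2 reversed. A value that was not called and changed sign while still not called counts among those that kept their side. CRY1 reversed with the GC and length offsets, from 0.36 to -0.43 against PNKP1i and from 0.01 to -0.69 against TH10785. The cause was not tested. BHLHE41, PER1, PER2, CRY2 and DBP against PNKP1i were called lower in 21 of 21 alternatives. Fitting only the groups compared gave 1 call in place of 0 for PNKP1i against DMSO (CRY1, -0.52, adjusted p = 0.0122 in edgeR) and 4 in place of 8 for both compounds against TH10785. Over all genes the latter fit called 5076 of 16572, where the main fit called 7317 of 17290. Leaving out libraries gave 0 to 1 calls for PNKP1i against DMSO (1 without TH10785 replicate 3), 7 to 9 for both against PNKP1i, 6 to 7 against DMSO, 5 to 8 against TH10785 (5 without replicate 3 of the combination) and 3 to 4 for the interaction. Those fits tested 17659 to 17809 genes. Over all of these they called 7 to 301, 6169 to 9100, 5149 to 8468, 5647 to 7603 and 3492 to 6140, in the same order. Same-numbered libraries did not deviate together (correlations from -0.25 to 0.06). With the replicate block, 8 members were called against PNKP1i (BHLHE41 -0.98, adjusted p = 0.0059), and 7 in place of 8 against TH10785. The block called 7352 and 6745 of 17290 genes in those comparisons. Over all genes, PNKP1i against DMSO had 34 calls, 15 with the block, 111 with DESeq2, 189 with no filter, 91 with the offsets and 1150 when fitted alone. Of the other clock genes, 6 in the table were too low to be tested at this depth.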
